A study of Mus musculus with 14 samples.

Results

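The genes described here are a list of 35 that serve amino acid supply and the response to amino acid shortage. They are 9 amino acid transporters, 11 synthesis enzymes, 6 tRNA synthetases and 9 stress factors around ATF4. The synthesis enzymes are those of asparagine, serine, proline and cysteine synthesis and of the folate one-carbon pathway. A gene was followed on its brightest probe set among those annotated to its symbol alone, which gave 33 of the 35 a value, out of 19752 genes with such a probe set. Aars and Pycr1 were not analysed here, and the list's Mars is carried by the array as Mars1. Of the 33, 31 passed the filter on dim genes (mean log2 intensity of at least 6.27) and were tested among 11851 genes. The transporter Slc7a11, at a mean of 5.14, and the lipoprotein receptor Vldlr, at 5.55, were below it.

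The cells were CD4+ T cells obtained by negative selection from spleens of male C57BL/6 mice aged 6 weeks and activated for 48 h with beads carrying antibodies to CD3 and CD28. Each culture then received interferon alpha at 100 U/ml with 1 of 7 JAK inhibitors, each at its IC80, for 2 h or 8 h, so interferon and prior activation were common to all 14 arrays. The inhibitors carry the target labels JAK1, JAK1/2, PAN, TYK2 and JAK2, and the pair labelled JAK3 is told apart by the titles IFN.6226 and IFN.6228. Each inhibitor and time is represented by a single array (n = 1), and arrays without inhibitor were not used here. The series asks how JAK blockade alters the interferon alpha response, and the comparisons open to these genes are therefore 8 h against 2 h, inhibitor against inhibitor, and inhibitors grouped by the kinases they name. With no repeated culture, p-values measure only how unevenly the inhibitors changed between times or how far they spread, which may be technical. Time after the addition of inhibitor and interferon cannot be told apart from time in culture after activation.

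ATF4 is a transcription factor whose own messenger RNA is translated best when the initiation factor eIF2 is phosphorylated, by GCN2 when uncharged tRNA builds up or by PERK when proteins misfold in the endoplasmic reticulum. It binds composite C/EBP-ATF sites and raises transporters, synthesis enzymes and tRNA synthetases, and in growing T cells mTORC1 also drives it. Activated T cells depend on imported neutral amino acids and on serine feeding the mitochondrial folate pathway, which supplies one-carbon units for purines. JAK1 and TYK2 serve the type I interferon receptor, and JAK1 pairs with JAK3 on cytokine receptors that use the common gamma chain, for instance for interleukin-2.

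All values are log2 intensities, and pairs of arrays correlated with a Pearson r of 0.980 to 0.998. The T cell markers (6 of 8 with a probe set) averaged 11.67 to 11.81 on the 2 h arrays and 12.01 to 12.11 on the 8 h arrays. The CD8 markers, Cd8a and Cd8b1, averaged 7.59 to 7.82 at 2 h and 7.94 to 8.16 at 8 h. For 3 B cell markers the averages were 8.39 to 8.61 at 2 h and 8.83 to 9.14 at 8 h. Myeloid, granulocyte, NK, dendritic and erythroid lists averaged 6.52 or less on every array, though single genes in them were brighter. Ctss, of the macrophage list, read 8.66 to 9.31 at 2 h and 8.87 to 9.70 at 8 h, and Nkg7, of the NK list, 9.03 to 9.40 and 9.19 to 9.90. A list of 8 skeletal muscle genes stood at 7.34 and 7.40 on the JAK1/2 arrays and at 7.26 on the 8 h JAK1 array, against at most 6.79 on the others. Fewer cells of a type and less RNA per cell cannot be told apart in such bulk samples, and the part of these shifts in the results below was not tested.

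From 2 h to 8 h, 27 of the 31 tested genes fell and 2 rose. Every transporter, synthesis enzyme and tRNA synthetase tested was lower at 8 h, and the exceptions, Ddit3, Ddit4, Sesn2 and Trib3, were all stress factors. Over all 11851 genes tested, 28% were called lower and 21.3% higher (49.3% in either direction), so the list's 87.1% lower stands against that background. The median change was -0.64 for the list and 0.02 for all tested genes. These are limma tests with inhibitor as a factor, called at a Benjamini-Hochberg adjusted p below 0.05. For 25 of the 31, every 8 h array lay below every 2 h array, as for 15.6% of all genes, and for Ddit4 alone every 8 h array lay above, as for 8.87%. Under the 5 scalings of the arrays tried, 25 to 27 of the list were lower, against 25.8% to 29.4% of all genes. The list is bright, with 13 of the 31 in the brightest of 5 equal bins of tested genes. With the dim filter raised to the 60th percentile, 21 of 24 were lower. The median change was then -0.68 for the list and -0.04 for all genes. A background matched for brightness was not tested.

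**Figure D1:**
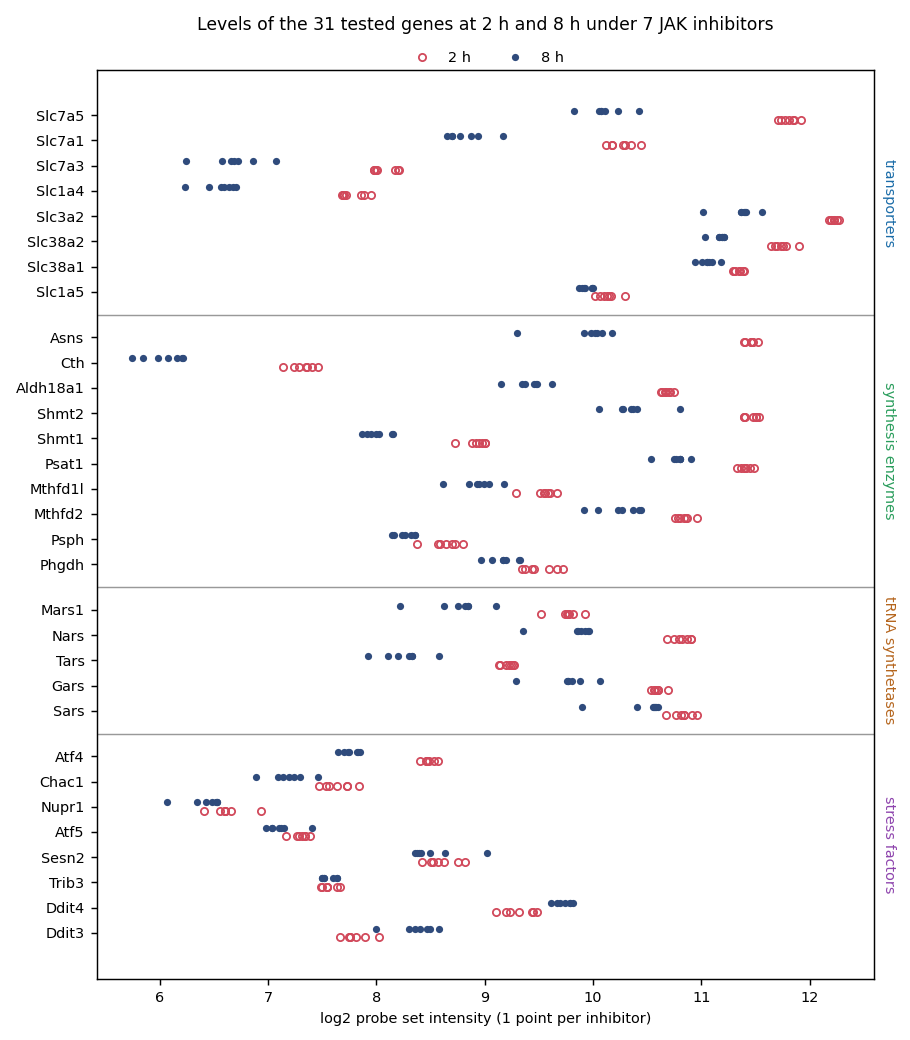
Log2 intensity (horizontal axis) of the 31 tested genes, grouped by role, with 1 open point per inhibitor at 2 h and 1 filled point at 8 h. The times are apart for the transporters, enzymes and synthetases, as in Slc7a5 (11.71 or more at 2 h, 10.42 or less at 8 h), and mix for Ddit3, Sesn2, Trib3, Nupr1 and Atf5.

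The transporters fell by a median of 1.05 on the log2 scale. Slc7a5 is the light chain of the exchanger that imports leucine and other large neutral amino acids. In the order JAK1, JAK1/2, PAN, TYK2, JAK2, IFN.6226 and IFN.6228, which holds for every list of 7 values below, Slc7a5 stood at 11.71, 11.85, 11.73, 11.92, 11.81, 11.85 and 11.77 at 2 h. At 8 h it stood at 9.82, 10.11, 10.07, 10.23, 10.42, 10.06 and 10.07. It was thus lower at 8 h under each inhibitor with a gap between the times, lowest under JAK1 and highest under JAK2, and its 3.23-fold mean fall (-1.69, SE 0.05, adjusted p = 3.30e-11) had rank 20 among the falls of all genes tested. Slc3a2, the heavy chain that carries Slc7a5 to the membrane, read 12.19, 12.22, 12.20, 12.27, 12.18, 12.22 and 12.26 at 2 h. Its 8 h values were 11.02, 11.37, 11.40, 11.40, 11.56, 11.36 and 11.41. The 2 h values of Slc3a2 spanned little and all lay above the 8 h values, and the mean fell 1.81-fold (-0.86, SE 0.05, adjusted p = 1.40e-08).

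Slc7a1 imports the cationic amino acids arginine and lysine. Its 2 h values were 10.28, 10.44, 10.17, 10.30, 10.35, 10.17 and 10.12, and its 8 h values 8.77, 8.88, 8.94, 8.65, 9.17, 8.70 and 8.70. The JAK2 array was the highest at 8 h and the groups did not overlap, with a 2.70-fold fall (-1.43, SE 0.06, adjusted p = 8.11e-10). Slc1a4 exchanges alanine, serine and cysteine. It was measured at 7.86, 7.89, 7.72, 7.70, 7.68, 7.69 and 7.95 at 2 h and at 6.23, 6.57, 6.46, 6.59, 6.68, 6.71 and 6.64 at 8 h. No 8 h value of Slc1a4 reached a 2 h value, and the fall was 2.35-fold (-1.23, SE 0.08, adjusted p = 2.09e-08). The remaining transporters fell too: Slc7a3, another cationic transporter, by 1.39, the sodium-coupled neutral transporters Slc38a2 by 0.58 and Slc38a1 by 0.28, and Slc1a5, which takes up glutamine, by 0.19. Slc7a11, the cystine exchanger, was dim and untested, with levels from 5.20 to 5.58 at 2 h (median 5.33) and from 4.62 to 5.26 at 8 h (median 4.89).

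The synthesis enzymes fell by a median of 0.78. Asns, which makes asparagine from aspartate and glutamine, read 11.39, 11.45, 11.48, 11.47, 11.40, 11.46 and 11.52 at 2 h. At 8 h it read 9.30, 9.98, 10.02, 10.09, 10.18, 9.92 and 10.03. The 2 h arrays were nearly level, while at 8 h the JAK1 array stood below the rest, and the fall was 2.87-fold (-1.52, SE 0.08, adjusted p = 3.36e-09). Aldh18a1 starts proline synthesis from glutamate. It measured 10.70, 10.74, 10.62, 10.66, 10.71, 10.63 and 10.68 at 2 h and 9.15, 9.47, 9.49, 9.35, 9.62, 9.37 and 9.46 at 8 h. The groups were well apart and JAK1 was again lowest at 8 h, with a 2.40-fold fall (-1.26, SE 0.06, adjusted p = 1.09e-09).

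Cth makes cysteine from cystathionine. Its values were 7.35, 7.41, 7.29, 7.14, 7.24, 7.36 and 7.46 at 2 h and 6.16, 5.85, 5.75, 6.21, 6.20, 6.08 and 5.99 at 8 h. Here PAN and JAK1/2 were the lowest at 8 h and JAK1 was among the highest, with a mean change of -1.29. Cth passed the filter through its 2 h values alone, since each 8 h value lay below the 6.27 it asks for, so this change is a description and was bound to be a fall. Without Cth, 26 of 30 genes were called lower, and 24 of 30 did not overlap between times. Shmt1, the cytosolic enzyme that splits serine into glycine and a one-carbon unit, read 8.73, 8.98, 8.95, 9.01, 8.89, 8.92 and 9.002 at 2 h and 7.92, 7.95, 8.15, 7.86, 8.15, 7.99 and 8.03 at 8 h. JAK1 was the lowest at 2 h but not at 8 h, and the fall was 1.89-fold (-0.92, SE 0.06, adjusted p = 4.16e-08).

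The mitochondrial arm of the same pathway fell as well. Shmt2, its serine hydroxymethyltransferase, fell by 1.10, with changes per inhibitor from -1.48 (JAK1/2) to -0.60 (JAK2). Mthfd2, the dehydrogenase that follows, fell by 0.60, and Mthfd1l, the synthetase that releases formate, by 0.60. Of the 3 enzymes that make serine from glycolysis, Psat1 fell by 0.64, Psph by 0.37 and Phgdh, which takes the first step, by 0.34. Phgdh and Psph thus had the smallest falls of the 10 enzymes.

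All 5 tRNA synthetases tested fell, with a median of -0.96. Mars1, which charges methionine, read 9.52, 9.75, 9.76, 9.78, 9.76, 9.82 and 9.92 at 2 h and 8.22, 8.63, 8.81, 8.85, 9.11, 8.85 and 8.75 at 8 h. JAK1 was the lowest and JAK2 the highest at 8 h, with a fall of 2.02-fold (-1.01, SE 0.07, adjusted p = 4.78e-08). Nars charges asparagine, and its levels were 10.74, 10.69, 10.80, 10.86, 10.82, 10.90 and 10.90 at 2 h. At 8 h they were 9.35, 9.85, 9.92, 9.89, 9.97, 9.95 and 9.86. The JAK1 array stood alone below the other 6 at 8 h, and the fall was 1.98-fold (-0.99, SE 0.06, adjusted p = 2.32e-08).

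Tars charges threonine. It read 9.14, 9.13, 9.19, 9.25, 9.27, 9.26 and 9.23 at 2 h and 8.10, 7.92, 8.33, 8.30, 8.58, 8.33 and 8.20 at 8 h. JAK1/2 was the lowest at 8 h and JAK2 the highest, and the mean fell 1.94-fold (-0.96, SE 0.06, adjusted p = 3.56e-08). Gars, for glycine, measured 10.57, 10.60, 10.60, 10.53, 10.56, 10.59 and 10.69 at 2 h and 9.29, 9.77, 9.88, 9.77, 10.06, 9.76 and 9.81 at 8 h. It fell 1.78-fold (-0.83, SE 0.07, adjusted p = 4.08e-07), with JAK1 lowest and JAK2 highest at 8 h. Sars, for serine, fell least, by 0.38, with changes from -0.77 (JAK1) to -0.17 (JAK2).

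The stress factors did not move one way: 4 fell, 2 rose and 2 did not pass, with a median of -0.13. Atf4 itself read 8.46, 8.40, 8.53, 8.57, 8.47, 8.46 and 8.49 at 2 h and 7.71, 7.65, 7.83, 7.84, 7.75, 7.74 and 7.83 at 8 h. Its fall was 1.64-fold (-0.72, SE 0.05, adjusted p = 9.09e-08) and nearly the same under every inhibitor, from -0.76 (JAK1) to -0.66 (IFN.6228), with an SD of 0.03 over the 7. An array measures the Atf4 message and not the protein, whose amount is set largely by translation.

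Ddit4, an inhibitor of mTORC1, rose. Its values were 9.11, 9.32, 9.49, 9.23, 9.19, 9.44 and 9.43 at 2 h and 9.69, 9.61, 9.79, 9.78, 9.67, 9.82 and 9.74 at 8 h. The times did not overlap, and the rise was 1.33-fold (0.41, SE 0.06, adjusted p = 2.67e-05). Ddit3 encodes CHOP, the factor tied to cell death under long stress. It read 8.02, 7.90, 7.67, 7.75, 7.76, 7.76 and 7.81 at 2 h and 7.99, 8.47, 8.35, 8.40, 8.30, 8.49 and 8.58 at 8 h. It was higher at 8 h under 6 inhibitors and changed by -0.03 under JAK1, and its mean rise was 1.47-fold (0.56, SE 0.09, adjusted p = 8.73e-05).

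Chac1, which degrades glutathione, measured 7.73, 7.47, 7.53, 7.73, 7.84, 7.56 and 7.63 at 2 h and 7.30, 7.46, 7.24, 7.20, 7.09, 6.89 and 7.13 at 8 h. It fell by 0.46 (SE 0.08, adjusted p = 3.49e-04) in the mean, but the change ran from -0.75 (JAK2) to -0.01 (JAK1/2), so the inhibitors spread widely. The calls of Atf5, a relative of ATF4, and Nupr1, a small stress-induced nuclear protein, were the weakest. Atf5 changed by -0.18 (SE 0.07, adjusted p = 0.0458) and Nupr1 by -0.21 (SE 0.08, adjusted p = 0.0469), the times overlapped for both, and the call of each was lost in 9 of the alternatives run. Under JAK1 alone Atf5 did not fall, at 0.23. Sesn2, a leucine sensor that restrains mTORC1, changed by -0.07 (SE 0.07, adjusted p = 0.422), and Trib3, a pseudokinase that feeds back on ATF4, by 0.00 (SE 0.06, adjusted p = 0.970). Vldlr, untested, had levels from 5.50 to 5.66 at 2 h (median 5.61) and from 5.33 to 5.62 at 8 h (median 5.56).

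The promoters were searched for the composite site that ATF4 binds with C/EBP partners. The genes were listed for their place around ATF4, so a share above that of all windows may come from that choice alone. It says nothing about the fall from 2 h to 8 h. The letters searched were TGATGNAA on either strand (TTNCATCA when read on the other), in RefSeq windows from 250 bases before to 50 after a start site, assembly GRCm38.p6. Of the 33 genes, 27 had a window there. These genes have 31 windows. The letters occurred in 9 of the 31, each of another gene, against 3.97% of all 32851 windows of the same length. The stricter TGATGCAA, which is contained in the first, occurred in 6 of 31 against 0.895%, and TTCNNNGAA, the palindrome of STAT sites, in 5 of 31 against 8.3%. The stretches below are shown because they put the match beside the change of each tested gene that has it, 5′ to 3′ along the gene, with the matched letters in capitals.
Asns, chr6:7693210-7693258, minus strand: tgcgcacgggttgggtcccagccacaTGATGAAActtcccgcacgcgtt
Slc1a4, chr11:20332699-20332728, minus strand: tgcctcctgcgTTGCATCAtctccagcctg
Tars, chr15:11399659-11399699, minus strand: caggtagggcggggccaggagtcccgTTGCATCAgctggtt
Gars, chr6:55037945-55038000, plus strand: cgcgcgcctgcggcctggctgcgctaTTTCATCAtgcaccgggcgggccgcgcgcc
Chac1, chr2:119351023-119351082, plus strand: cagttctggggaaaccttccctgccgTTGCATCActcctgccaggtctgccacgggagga
Nupr1, chr7:126625547-126625606, minus strand: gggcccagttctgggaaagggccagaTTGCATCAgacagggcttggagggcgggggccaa
Trib3, chr2:152344028-152344057, minus strand: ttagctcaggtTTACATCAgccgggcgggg
The first matched base lay between position -193 from the start site (Chac1) and position 15 (Trib3). The untested Slc7a11 and Vldlr also hold a match.

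Of the 7 tested genes with a match, 6 fell, from Asns (-1.52) to Nupr1 (-0.21), and Trib3 did not pass (0.00). Of the 18 tested genes with a window and no match, 15 fell and 2 rose. Slc7a1, the largest fall among those 18 at -1.43, and Atf4 have no match, and the windows of Slc7a5 and 5 other genes (Cth, Nars, Slc1a5, Slc38a1 and Slc7a3) were not used here. A match is a description of the letters, and its absence says only that they are not in this window.

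The counts of other lists of the pathway are to be read against the 28% of all genes called lower and the 21.3% called higher. Among 13 other cytosolic tRNA synthetases, 11 fell and 1 rose, with a median of -0.42, and of 3 scaffold factors of their complex (Aimp1, Aimp2 and Eef1e1), 2 fell. The isoleucine enzyme Iars changed by -1.25, the tyrosine enzyme Yars by -1.11, the cysteine enzyme Cars by -1.09 and the bifunctional Eprs by -0.75. The glutamine enzyme Qars rose by 0.14. Of 16 mitochondrial synthetases 6 fell and 0 rose, with a median of -0.08. Yars2 (-0.65), Nars2 (-0.34), Tars2 (-0.27) and Ears2 (-0.23) led these. The difference between the cytosolic list and the one that serves the mitochondrial ribosome was not tested.

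Of 15 kinases and factors of eIF2 control, 11 fell and 0 rose (median -0.27). The eIF2B subunit Eif2b3 changed by -0.90, the eIF2 subunits Eif2s2 and Eif2s3x by -0.62 and -0.27, and Ppp1r15b, which guides eIF2 dephosphorylation, by -0.35. Among 17 other ATF4 targets and partners, 9 fell and 3 rose (median -0.17). Atf3, a stress-induced factor, changed by -1.56, the alanine transaminase Gpt2 by -1.06, the secreted Stc2 by -0.87 and the translation repressor Eif4ebp1 by -0.83. The ER branch of the unfolded protein response fell in 13 of 16 genes and rose in 1 (median -0.24), among them Sdf2l1 (-0.64), Xbp1 (-0.60), Pdia6 (-0.55) and the chaperone Hspa5 (-0.52). The remaining follow-up genes also fell, Myc, a growth factor-induced transcription factor, by 0.57 and Ppp1r15a, the stress-induced partner of Ppp1r15b, by 0.27.

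In the folate cycle beyond the list, 6 of 12 genes fell and 0 rose (median -0.19), led by the cytosolic Mthfd1 (-0.83), the mitochondrial folate carrier Slc25a32 (-0.47), the reduced folate carrier Slc19a1 (-0.46) and Fpgs (-0.40), which adds glutamate tails to folate. Purine synthesis, which uses the one-carbon units, fell in 8 of 11 genes (median -0.34), with Gart at -0.84, Prps1 at -0.82, Atic at -0.63 and Ppat at -0.49. Of 9 methionine, polyamine and glutathione genes, 6 fell and 1 rose (median -0.31). The polyamine enzymes Odc1 and Srm changed by -1.40 and -1.39, the glutathione enzyme Gclc by -0.56 and Ahcyl1 by -0.46. Of 13 enzymes of glutamine, glutamate, aspartate and proline, 7 fell and 1 rose (median -0.18), with Got1 at -0.90, the pyrimidine enzyme Cad at -0.76 and Oat at -0.34. Ppat belongs to this list as well as to purine synthesis and is counted in both.

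The 2 lists with as many rises as falls, or nearly so, were other amino acid transporters and mTORC1 sensing. Of 14 other transporters, 3 fell and 4 rose (median -0.04): the glycine carrier Slc6a9 changed by -1.54, the aromatic carrier Slc16a10 by -1.22 and Slc7a6, another partner of Slc3a2, by -1.04, while the lysosomal arginine sensor Slc38a9 changed by 0.70. Of 24 genes of mTORC1 and amino acid sensing, 5 fell and 5 rose (median -0.04). In both lists the share of falls was below that of all genes. The GTPases Rragd and Rheb changed by -1.19 and -0.57, and Sesn1 and Nprl2, which hold mTORC1 back, by 0.64 and 0.46. Sesn1 thus rose where its relative Sesn2 did not pass.

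**Figure D2:**
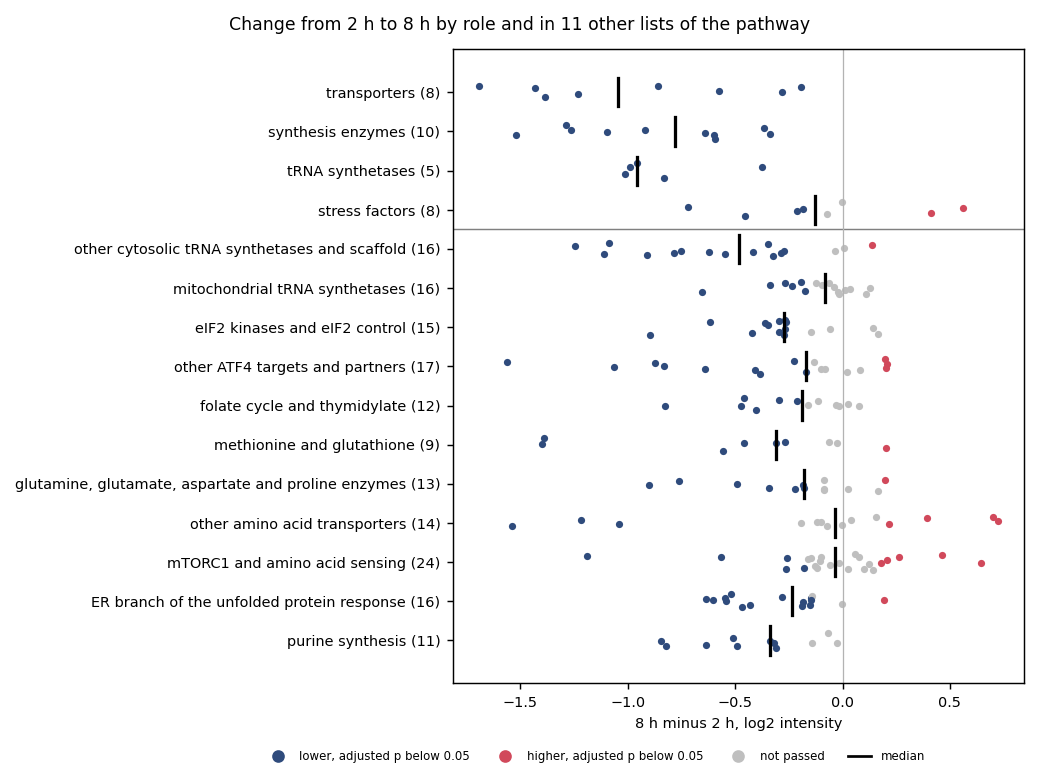
Change from 2 h to 8 h (log2, horizontal axis) of each tested gene in the 4 role groups and in 11 other lists of the pathway, with a black bar at the list's median and colour for the call. Medians run from -1.05 for transporters to -0.04 for mTORC1 sensing, and the largest rises lie in stress factors and in the lists of sensing and other transporters.

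The size of the fall differed between inhibitors, and so did the level of the arrays as a whole. The median change of the 31 genes was -0.79 under JAK1, -0.72 under both IFN.6226 and IFN.6228, -0.70 under TYK2, -0.64 under JAK1/2, -0.59 under JAK2 and -0.56 under PAN. For all tested genes the same medians were -0.10 under JAK1 and 0.05 under JAK2, with the other 5 between. In the tRNA synthetases the range was widest, from -1.28 under JAK1 to -0.66 under JAK2. The transporters ran from -1.34 under JAK1 to -0.76 under JAK2, and the enzymes from -0.92 to -0.54. At 8 h, JAK1 was the lowest of 7 for 19 of the 31 genes (61.3%), where it was the lowest for 45.3% of all genes. JAK2 was the highest for 20 (64.5%), against 42.9% of all genes. Both shares are descriptions without a test, on arrays that stood low (JAK1) or high (JAK2) for genes in general.

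**Figure D3:**
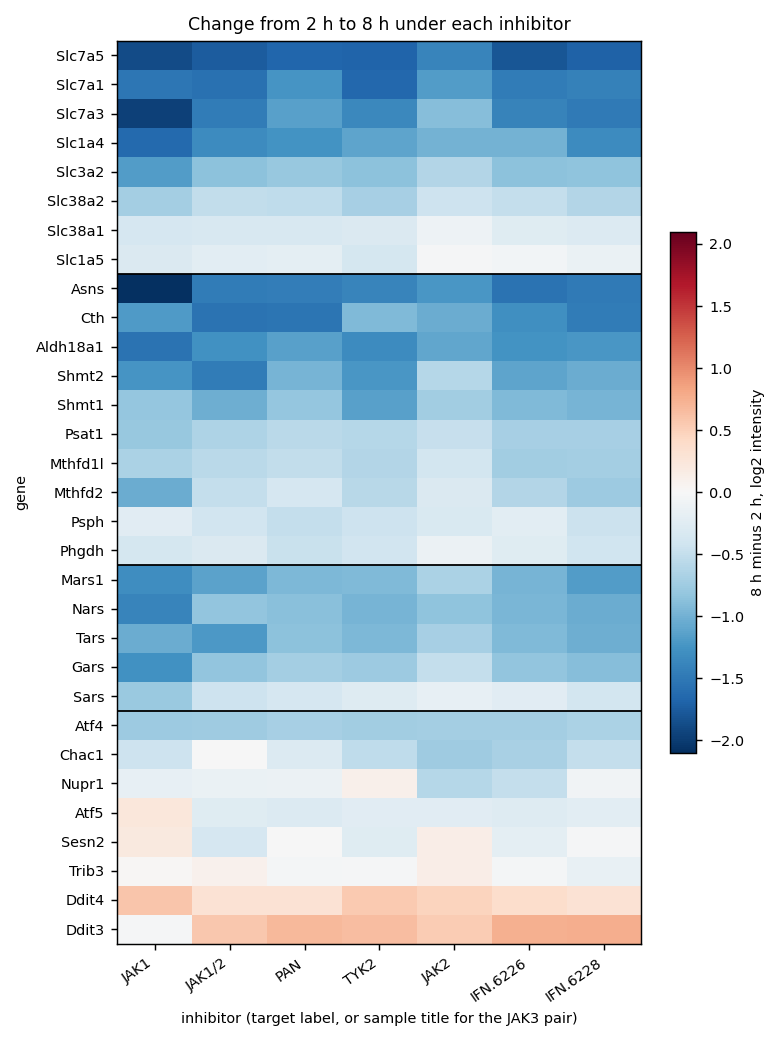
Heat map of the change from 2 h to 8 h (log2, colour) of the 31 tested genes (rows, by role) under the 7 inhibitors (columns), with blue for a fall and red for a rise. The transporters, enzymes and synthetases are blue in every column, Atf4 varies least, and Ddit3 and Ddit4 are positive except Ddit3 under JAK1 (-0.03).

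The JAK1 inhibitor against the mean of the other 6, both times together, was the one comparison of inhibitors in which any of these genes passed. Lower under JAK1 were 5 of 31 (16.1%; 6.73% of all genes were lower), and 1 was higher (3.23%; 0.937% of all genes), with 7.66% of all genes called in either direction. The lower genes were the synthetases Mars1, Sars and Nars and the enzymes Asns and Mthfd1l, and the higher one was Sesn2. The share of all genes called higher rose to 5.97% with cyclic loess, 6.29% with quantile normalization and 7.49% with centring on tested genes, so the list's 3.23% lay above the background as deposited and below it under those scalings. The median was -0.14 for the list and -0.05 for all genes. Scaling moved both: with arrays centred on the median of tested genes they were -0.04 for the list and 0.06 for all genes, whose sign thus turned, and with quantile normalization -0.04 and 0.00. The list's median minus that of all genes was -0.09 as deposited and -0.04 after quantile normalization.

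Sars, the serine synthetase, read 10.68, 10.83, 10.91, 10.84, 10.76, 10.81 and 10.96 at 2 h, so JAK1 was the lowest by a small margin. At 8 h it read 9.90, 10.40, 10.55, 10.57, 10.60, 10.56 and 10.58. JAK1 then stood apart below the other 6, and the difference over both times was -0.41 (SE 0.09, adjusted p = 0.0155). For Mars1, given above, JAK1 was lowest at both times, and the difference was -0.45 (SE 0.10, adjusted p = 0.0172). Mthfd1l measured 9.29, 9.60, 9.51, 9.54, 9.56, 9.59 and 9.67 at 2 h and 8.62, 9.04, 8.997, 8.93, 9.18, 8.85 and 8.95 at 8 h. JAK1 was the lowest at both times, with a difference of -0.33 (SE 0.08, adjusted p = 0.0268).

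Asns and Nars differed at 8 h and hardly at 2 h. The differences were -0.40 (SE 0.11, adjusted p = 0.0418) for Asns and -0.32 (SE 0.09, adjusted p = 0.0461) for Nars. Sesn2 went the other way. It read 8.82, 8.75, 8.42, 8.63, 8.51, 8.57 and 8.52 at 2 h and 9.02, 8.39, 8.41, 8.38, 8.64, 8.36 and 8.49 at 8 h. JAK1 was the highest at both times, with a difference of 0.41 (SE 0.10, adjusted p = 0.0283).

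At 2 h alone the differences of JAK1 from the other 6 were -0.28 for Mars1, -0.29 for Mthfd1l, -0.18 for Sars, -0.07 for Asns, -0.08 for Nars and 0.25 for Sesn2. At 8 h they were larger: -0.61 for Mars1, -0.37 for Mthfd1l, -0.64 for Sars, -0.74 for Asns, -0.55 for Nars and 0.57 for Sesn2. A fit without the 8 h JAK1 array keeps 1 JAK1 array, so it cannot decide whether the calls rest on the array left out. Leaving out TYK2 or IFN.6228 left 2 calls (452 and 360 over all genes, against 908 with every inhibitor). Leaving out PAN or IFN.6226 left 3 (567 and 458 over all genes). Centring on the median of all probe sets left 3 (546 over all genes). Calls over all genes thus fell as well in these settings. The 8 h JAK1 array was also among the 3 with raised skeletal muscle genes, whose part was not tested. The 8 h deviation of JAK1 also varied with brightness over all genes: the median difference from the other 6 was 0.06, -0.06, -0.19, -0.23 and -0.17 in 5 equal bins from the dimmest to the brightest, so the trend was not steady. The medians of the list in the same bins were 0.08 (2 genes), -0.04 (5 genes), -0.12 (6 genes), -0.24 (5 genes) and -0.34 (13 genes). The list thus lay below all genes in the brightest bin, close to them in the next, and above them in the dimmer 3.

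In the other lists of the pathway, where 6.73% of all genes set the background, JAK1 was lower for 5 of 13 cytosolic synthetases and 1 of 3 scaffold factors. Among the synthetases were Wars at -0.45 and Yars at -0.41. JAK1 was also lower for 3 of 11 purine genes, with Ppat, which is in the glutamine list too, at -0.59. It was lower for 3 of 16 genes of the unfolded protein response, including Hspa5 (-0.28, adjusted p = 0.0241), for 3 of 24 of mTORC1 sensing, for 2 of 13 of the glutamine and aspartate enzymes and for 1 of 17 other ATF4 targets. It was lower for 0 of 16 mitochondrial synthetases, 0 of 12 folate genes, 0 of 9 methionine and glutathione genes and 0 of 14 other transporters, and no list held a gene called higher. In eIF2 control 1 of 15 was lower, a share near the background, Eif2ak2, the kinase PKR and itself an interferon-stimulated gene, at -1.67 (adjusted p = 5.83e-06). Those JAK1 values of single genes were chosen after they were seen. Myc (-0.13), Atf3 (0.15), Xbp1 (0.03) and Ppp1r15a (0.19) did not pass against JAK1.

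**Figure D4:**
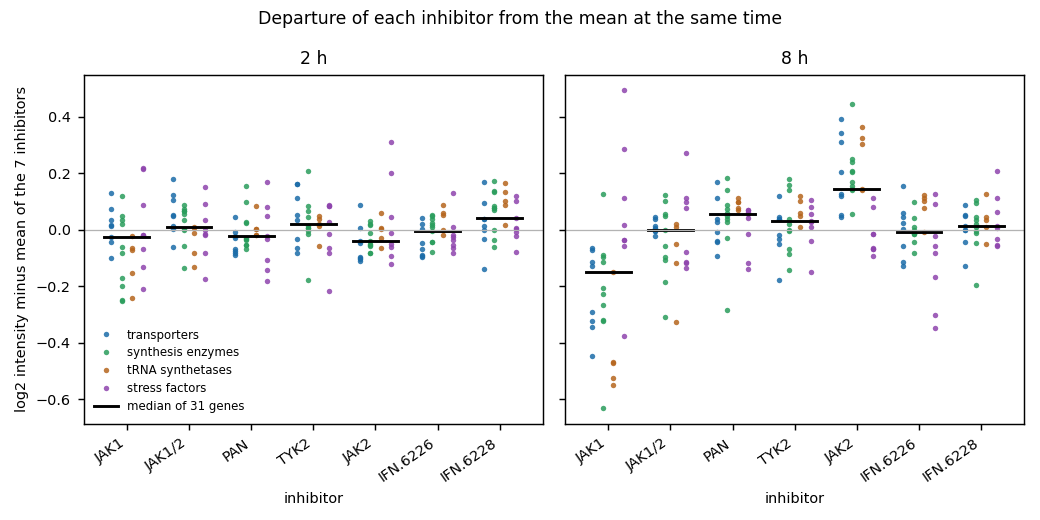
Log2 intensity of each tested gene minus its mean over the 7 inhibitors at the same time (vertical axis), per inhibitor, at 2 h (left) and 8 h (right), with 1 point per gene coloured by role and a bar at the median of the 31. At 8 h the bar lies at -0.15 under JAK1 and 0.14 under JAK2, and at 2 h all 7 bars lie between -0.04 and 0.04. Over all tested genes, not drawn, the 8 h medians were -0.10 under JAK1 and 0.10 under JAK2.

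No gene of the list passed in the remaining comparisons of single inhibitors by limma. For JAK2 against the other 6, 0 of 31 passed and 0.0759% of all genes did. The value was positive for 26 of 31, with a median of 0.06 against 0.03 over all genes. With centring on tested genes these medians were 0.02 and -0.01. An unadjusted p below 0.05 was reached by 3: Slc7a1 at 0.25 (SE 0.09, adjusted p = 0.714), Tars at 0.23 (SE 0.09, adjusted p = 0.900) and Slc7a5 at 0.18 (SE 0.08, adjusted p = 0.936). Myc stood at 0.37 with an adjusted p of 0.0974, so it did not pass either.

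For JAK1/2, 0 of 31 passed (0.00844% of all genes), and 1 had an unadjusted p below 0.05, Tars at -0.24 (SE 0.09, adjusted p = 0.932). Next came Phgdh at -0.14 (SE 0.08, adjusted p = 0.939) and Atf4 at -0.11 (SE 0.08, adjusted p = 0.939). For TYK2, 0 of 31 passed (0% of all genes), and 1 had an unadjusted p below 0.05, Phgdh at 0.20 (SE 0.08, adjusted p = 0.919). Slc38a2 (0.12) and Slc7a5 (0.13) followed. For PAN, 0 of 31 passed (0% of all genes), 0 with an unadjusted p below 0.05, and the smallest p belonged to Ddit4 (0.14), Sesn2 (-0.18) and Cth (-0.19).

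The inhibitors labelled JAK3 share a target label and can be set against each other. IFN.6226 against IFN.6228 gave 0 calls of 31 (0% of all genes) and 0 with an unadjusted p below 0.05. The median difference was -0.06 over the list and -0.02 over all genes. The largest was Nupr1 at -0.25 (SE 0.15, adjusted p = 1.00), followed in p by Chac1 at -0.16 and Psph at -0.11. The 95% intervals of the 31 differences lay between -0.58 and 0.42, so differences of that size remain possible. Against the other 6, IFN.6226 and IFN.6228 also gave 0 calls of 31 each (0% of all genes for each), and 0 with an unadjusted p below 0.05. Nupr1 (-0.24), Chac1 (-0.22) and Ddit4 (0.13) had the smallest p for IFN.6226, and Psph (0.16), Slc7a1 (-0.16) and Sars (0.15) for IFN.6228.

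The 4 inhibitors naming JAK1 or TYK2, with PAN counted among them, were compared with JAK2 and the JAK3 pair to ask whether these genes follow the kinases of the interferon receptor. At 2 h, 0 of 31 passed by limma (0.692% of all genes), 0 reached an unadjusted p below 0.05, and 0 genes had groups apart, where 1.88% of all genes were higher and 3.13% lower without overlap. The smallest p belonged to Mars1 at -0.14 (SE 0.08, adjusted p = 0.994), Nars (-0.10) and Slc1a5 (0.10). The 95% intervals at 2 h lay between -0.35 and 0.32. At 8 h, 0 of 31 passed (0% of all genes), and 1 had an unadjusted p below 0.05, Chac1 at 0.26 (SE 0.10, adjusted p = 0.307). Slc1a4 (-0.21) and Shmt2 (-0.26) came next.

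The groups did not overlap at 8 h for 4 genes that were lower (Slc1a4, Slc1a5, Slc38a1 and Psph), where 13.6% of all genes did so, and for 1 that was higher, Chac1, where 5.56% did. For the 8 h minus 2 h change, 0 of 31 passed (0.101% of all genes), and 3 had an unadjusted p below 0.05: Shmt2 at -0.31 (SE 0.13, adjusted p = 0.479), Chac1 (0.33) and Nupr1 (0.31). Slc1a5 and Slc38a1 had lower changes without overlap, against 5.87% of all genes. The list's median at 8 h was -0.10 against -0.08 for all genes, and both turned positive, to 0.04 and 0.06, with centring on tested genes.

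Grouping by the kinases of common gamma chain receptors, the 5 inhibitors naming JAK1 or JAK3, PAN included, were compared with JAK2 and TYK2. At 2 h, 0 of 31 passed (0.0422% of all genes), and 2 had an unadjusted p below 0.05, Cth at 0.18 (SE 0.07, adjusted p = 0.488) and Chac1 at -0.20 (SE 0.08, adjusted p = 0.512), followed by Slc1a4 (0.13). Higher without overlap at 2 h were Cth and Gars, against 11.4% of all genes, and lower was Atf5, against 3.58%. At 8 h, 0 of 31 passed (0% of all genes), and 1 had an unadjusted p below 0.05, Slc7a5 at -0.30 (SE 0.11, adjusted p = 0.982). Mars1 (-0.33) and Cth (-0.24) followed. Lower without overlap at 8 h were 5 genes, Slc7a5, Slc38a2, Asns, Cth and Phgdh, against 4.48% of all genes. The 8 h values of Cth, which also enter its change with time, lie below the level the filter asks for. The comparison with only JAK2 and TYK2 on 1 side has wide intervals, from -0.69 to 0.41 over the list.

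The 8 h minus 2 h change in this grouping gave 0 of 31 (0% of all genes), and 2 with an unadjusted p below 0.05, Cth at -0.43 (SE 0.15, adjusted p = 0.698) and Mars1 at -0.31 (SE 0.13, adjusted p = 0.698), with Slc7a5 next (-0.22). Asns, Cth and Mars1 had lower changes without overlap, against 8.24% of all genes. Among the follow-up genes, Myc in this grouping stood at -0.29 at 2 h (adjusted p = 0.284) and 0.01 at 8 h, and Atf3 at -0.36 and -0.05. None of Myc, Atf3, Hspa5, Xbp1 and Ppp1r15a passed in any grouping by kinase.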

How the data were processed

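RNA of 14 cultures was hybridised to Affymetrix Mouse Gene 1.0 ST arrays. Each deposited value is the linear intensity of a probe set, made with RMA in Affymetrix Power Tools per the submitters' processing notes. Background correction and the arrays normalized together are not given in the sources used here. Values were put on the log2 scale. Of 24922 probe sets, 21425 carried 1 gene symbol and were used, 1399 carried several and 2098 none. A gene took its brightest probe set and was tested if its mean was at or above the 40th percentile (6.27).

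The genes, lists and comparisons were chosen with earlier results of these data known. Tests used limma 3.58.1 in R 4.3.3 (lmFit, eBayes with trend), with Benjamini-Hochberg adjustment over 11851 genes at 0.05. The fit had inhibitor and time as factors (6 residual degrees of freedom), and inhibitors grouped by kinase were compared on 1 value each (5 residual degrees of freedom). Steps were tested on simulated data.

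Values of every array are given for the 4 genes per role with the largest moderated t for time and for genes called elsewhere. Where none passed, the 3 with the smallest p are named, and from each other list up to 4 called genes. Myc, Hspa5, Xbp1, Ppp1r15a and Atf3 were followed throughout. Alternatives were quantile normalization, median centring, cyclic loess, a filter at the 60th percentile or none, probe sets averaged per gene, robust moderation, eBayes without the trend, adding 50 before the log, no pairing by inhibitor, inhibitor as a random block, each inhibitor left out, and the 8 h JAK1 array left out. Centring on the median of tested genes was chosen after seeing the data. Promoter windows come from RefSeq, assembly GRCm38.p6. The number of arrays limits the precision.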

Additional observations from a re-analysis of the deposited data

Results flagged for a closer look

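Of 93 series of 7 values (31 genes at 2 h, at 8 h and as the change), 18 had an end value far from its neighbour. Far means a gap to the neighbour of over 0.568 of the range of the 7 values (Dixon's rule). Chance gives about 1 in 20 series. The 18 are 19.4% of the series, against 10.7% over all tested genes, and for the 8 h levels alone the share is 32.3% against 14.8%. The end value was that of JAK1 in 16.1% of these series and in 6.51% of those of all tested genes. Each was picked by that rule alone, with no adjustment for the number of series, and 15 of the 18 come from JAK1 arrays or changes that include them.

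The 8 h JAK1 array was far below the other 6 for 7 genes: Asns (9.30), Nars (9.35), Sars (9.90), Gars (9.29), Slc3a2 (11.02), Slc38a2 (11.04) and Psat1 (10.54). It was far above them for Atf5 (7.40) and Sesn2 (9.02). At 2 h the JAK1 array was far below for Mthfd1l (9.29) and Shmt1 (8.73).

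The change from 2 h to 8 h under JAK1 was far lower than the others for Asns (-2.09), Nars (-1.39) and Ddit3 (-0.030), and far higher for Atf5 (0.23). Outside JAK1, the Slc38a1 change under JAK2 (-0.11) was the highest, the 2 h level of Gars under IFN.6228 (10.69) the highest, and the 8 h level of Nupr1 under IFN.6226 (6.07) the lowest.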

How the results depend on the processing

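The count of genes called between 8 h and 2 h kept within 1.5 times of 29 in the 20 alternatives run, from 23, where the filter at the 60th percentile left 24 of the genes to test, to 29. Leaving out 1 inhibitor at a time gave 27 to 28, with 4996 to 6454 calls over all genes. Atf5 and Nupr1 were the genes that lost their call for time in the alternatives run. For JAK1 against the other 6, the 6 calls became 3 with median centring over all probe sets. Leaving out 1 other inhibitor at a time gave 2 to 8, with 360 to 1524 calls over all genes. Without the 8 h JAK1 array 1 JAK1 array is left, so no count is given for that setting. In the other 13 comparisons 0 genes of the list were called under each setting run. No named gene changed sign among those called. Over all genes, the share of JAK1 calls that were higher was 12.2% as deposited, 49.6% with quantile normalization, 48.4% with cyclic loess, 6.23% with median centring and 61.1% with centring on tested genes. The same share for time was 43.2%, 49.6%, 47.5%, 34.7% and 51.6%. Over all genes, JAK1 calls numbered 908 as deposited, 546 with median centring and 1503 with quantile normalization, and the cause was not tested. No paired analysis by replicate number was possible because every group holds 1 array, and the arrays of an inhibitor were already paired in the time fit. The filter on dim genes and the absence of repeated cultures limit what these arrays can show.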
